A study of Mus musculus with 13 samples.

Results

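The TRAV9 family is a group of variable (V) segments of the mouse T cell receptor (TCR) α chain. Its members here are all clonotypes with an open reading frame through CDR3 whose assigned V gene carries exactly the number 9 after TRAV, so that TRAV19 is not included. There were 3862 such clonotypes among 78521 functional clonotypes of 13 samples, or 4.92%, and they held 107646 of 7640705 functional counts. A further 426 clonotypes of the family were non-functional, of 11848 in all, or 3.596%. Of these, 388 were out of frame and 38 held a stop codon. The family was chosen by its share of functional clonotypes, which was lower at 1.5 months than later, so that share is described below without a test.

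The TCRα transcripts came from rescued regulatory T (Treg) cells, CD4 T cells in which Foxp3 had been switched back on. The donors were male C57BL/6 mice of the genotype Foxp3LSL/yCd4creERT2, whose single Foxp3 allele was blocked by a removable stop cassette. On postnatal day 14 all were given 4-hydroxytamoxifen, abbreviated 4-OHT. This activated a Cre recombinase expressed under control of Cd4, so removal of the cassette was not limited to cells that would use Foxp3, and it restored Foxp3 with a GFP reporter. Spleen and lymph node cells were pooled and sorted for GFP at 1.5 months (mice aged 8 weeks, n = 2), 3 months (3.5 months old, n = 4), 5 months (5.5 months old, n = 2) or 7 months (7.5 months old, n = 5) after 4-OHT. There was no untreated or Foxp3-sufficient group, so time after 4-OHT and age cannot be told apart. The labels do not state that each sample was a separate mouse, and p-values below measure the spread between these samples. Each sample held 509818 to 936831 counts and 4828 to 7998 functional clonotypes. The rearrangements that mark natural killer T cells (TRAV11 with TRAJ18) made up at most 0.0750% of functional clonotypes in any sample. Those of mucosal-associated invariant T cells (TRAV1 with TRAJ33) reached at most 0.0397%, and those with a TCRδ segment at most 0.189%. No TRAV9 clonotype was joined to a TCRδ J segment.

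A TCRα chain is made in the thymus when 1 V segment is joined to 1 joining (J) segment, with bases trimmed and added at the junction. The V segment encodes the first pair of the loops that contact peptide and MHC, and the junction forms the third loop, CDR3. The mouse Trav region was multiplied during evolution, so many families exist as an original set next to the J segments and as D and N copies farther away. A junction that is out of frame or holds a stop makes no receptor chain, so such transcripts are not selected through the receptor they would encode.

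In the GENCODE M21 annotation of GRCm38, 11 Trav9 genes lie on the plus strand of chromosome 14. Trav9d-1 (chr14:52792316-52792777), Trav9d-2 (chr14:52892186-52892618), Trav9d-3 (chr14:52920443-52921112) and Trav9d-4 (chr14:52983201-52983860) form the D set. Trav9n-1 (chr14:53101801-53102265, annotated as a pseudogene), Trav9n-2 (chr14:53203122-53203554), Trav9n-3 (chr14:53231433-53232102) and Trav9n-4 (chr14:53294341-53295030) form the N set. Trav9-1 (chr14:53488045-53488567), Trav9-2 (chr14:53590857-53591514) and Trav9-4 (chr14:53676141-53676630) form the original set, the nearest to the J segments. The start of CDR3 that each germline gene encodes, from the conserved cysteine codon on, is shown because it decides how well the copies can be told apart. Capitals mark bases that differ from Trav9-1, and the sequences were read from the GENCODE transcripts.

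Trav9-1, Trav9-4, Trav9d-1 and Trav9n-1: tgtgctgtgagcg

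Trav9-2: tgtgTtTtgagcg

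Trav9d-2 and Trav9n-2: tgtgTtCtgagcg

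Trav9d-3 and Trav9n-3: tgtgctgtgagcA

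Trav9d-4 and Trav9n-4: tgtgctCtgagcA

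Of the 11 genes, 9 were assigned in the tables, and TRAV9D-4 and TRAV9N-2 were never used as a name. Trav9d-2 and Trav9n-2 were identical over the last 220 bases of their longest transcripts, which include the CDR3 start. So were Trav9d-3 and Trav9n-3, and these names cannot be separated from the V sequence there. Trav9d-1 and Trav9-1 were identical at 99.1% of those bases. Of the 479 functional clonotypes named TRAV9D-2, 403 (84.1%) began with the first 9 bases of Trav9-2 shown above, and 67 (14.0%) with those of Trav9d-2. Of the TRAV9-1, TRAV9-4 and TRAV9D-1 clonotypes, 93.5%, 93.8% and 95.3% began with their germline bases, but these 3 genes share the same start, which cannot separate them. The 6 clonotypes named TRAV9N-1 all began with the residues CTS and none with the germline start of that pseudogene. Results for single genes below are therefore results for names in the tables, and D and N names are uncertain. Across the family, 63.9% of the functional CDR3s began with CAV, 17.8% with CVL and 13.9% with CAL.

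TRAV9 made up 3.99% and 3.49% of functional clonotypes in the 1.5-month samples. The 3-month samples held 4.97%, 5.57%, 5.07% and 5.51%, and the 5-month samples 4.81% and 5.45%. At 7 months the shares were 5.25%, 5.71%, 5.23%, 5.71% and 3.83%. Both early samples thus lay below 10 of the 11 later ones, and replicate 5 of 7 months fell between them. In numbers of clonotypes the early samples held 319 and 227 against 235 to 367 later, so that replicate 1 lay inside the later range and replicate 2 was the lowest of the 13. The share of functional counts was 0.967% and 0.524% at 1.5 months and 1.04% to 2.36% later, without overlap.

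**Figure D1:**
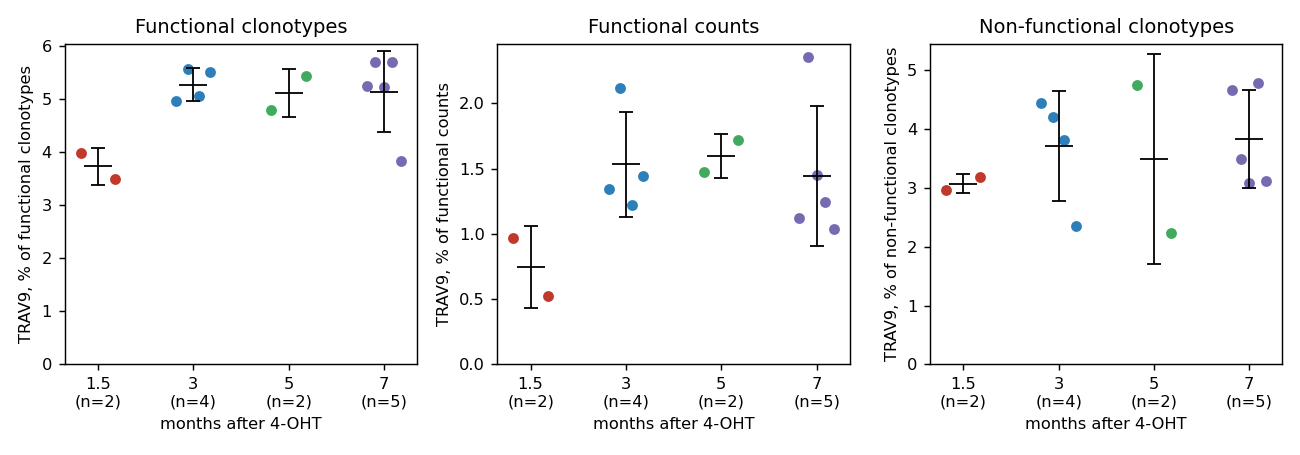
TRAV9 as a percentage of functional clonotypes (left), of functional counts (middle) and of non-functional clonotypes (right) against months after 4-OHT, with 1 point per sample and bars for mean and SD. The early samples are below all later ones in the middle panel and below all but replicate 5 of 7 months (3.83%) in the left panel, and lie within the later range of 2.23% to 4.79% in the right panel.

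The gene named TRAV9-1, the most frequent name of the family with 30.8% of its clonotypes at 1.5 months, accounted for the greatest part of the lower share. It made up 1.26% and 1.05% of functional clonotypes at 1.5 months. Its later values ran from 1.04% to 2.10% with a median of 1.80%, and 10 of the 11 later samples exceeded both early ones. The group means were 1.15% ± 0.153 at 1.5 months (SD, n = 2), 1.80% ± 0.213 at 3 months (n = 4), 1.76% ± 0.0296 at 5 months (n = 2) and 1.75% ± 0.400 at 7 months (n = 5). This gene carried 42.6% of the difference of the family. TRAV9N-4 carried 13.6%, TRAV9D-1 12.5% and TRAV9-4 9.73%. TRAV9D-3 followed with 7.05%, TRAV9N-3 with 5.67%, TRAV9D-2 with 4.14%, TRAV9-2 with 4.02% and TRAV9N-1 with 0.683%. The smaller parts depend on which early sample is used. TRAV9-2, for example, was at 0.363% and 0.169% of functional clonotypes early, against a later median of 0.357%. Relative to their own early means, TRAV9D-3 (1.75-fold), TRAV9N-3 (1.73-fold) and TRAV9D-1 (1.62-fold) had higher ratios of later to early share than TRAV9-1 (1.53-fold). The ratio of TRAV9N-3 rested on 13 and 4 early clonotypes (0.163% and 0.0616% of functional clonotypes). Against replicate 1 of 1.5 months alone, its ratio would lie below that of TRAV9-1.

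TRAV9D-1 was at 0.288% and 0.292% at 1.5 months and at 0.212% to 0.703% later, and only replicate 5 of 7 months lay below the early samples. TRAV9-4 was at 0.625% and 0.739% at 1.5 months and at 0.685% to 0.991% later, with overlap. TRAV9N-4 was at 0.513% and 0.554% early and at 0.483% to 0.976% later. The other names overlapped as well, with 9 of the 11 later samples above both early ones for TRAV9D-3, 8 for TRAV9D-2, 7 for TRAV9N-3 and 5 for TRAV9-2. TRAV9D-2 was at 0.613% and 0.523% against 0.436% to 0.764% later. All 9 names had a higher mean share later than at 1.5 months, including TRAV9N-1, which had 0 early. The names add up to the share by which the family was chosen, so this is not a separate result.

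**Figure D2:**
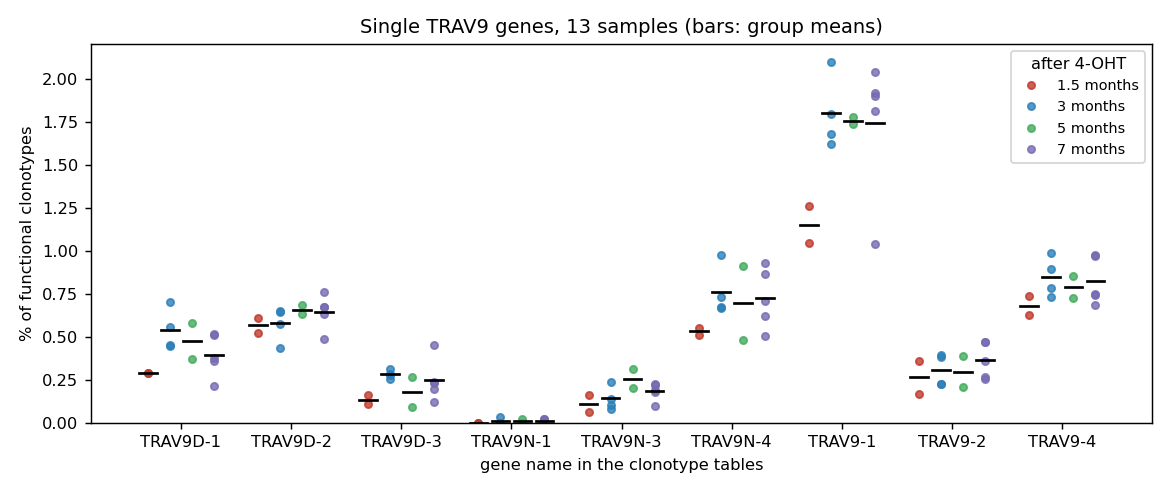
Share of functional clonotypes for each TRAV9 gene name, in chromosomal order from the D set over the N set to the original set, with 1 point per sample, colours for months after 4-OHT and bars for group means. TRAV9-1 stands above the others and has its 1.5-month samples at 1.26% and 1.05%, below 10 of the 11 later samples.

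Whether the make-up of the family changed was tested apart from its size. The clonotypes of each name were counted within the family total of each sample and compared between the mean of the 3 later groups and 1.5 months with edgeR's quasi-likelihood test. Of the 9 names, 8 passed the filter on low counts and 0 changed, which is also the background in this comparison (0% called). No name reached an unadjusted p under 0.05 in this edgeR fit or with DESeq2, and 1 (TRAV9D-2) did so with a replicate block and without replicate 3 of 3 months. TRAV9-1 differed by 0.14 on the log2 scale (SE 0.12, edgeR adjusted p = 0.745), or by 0.46 among clonotypes of 10 or more counts (edgeR adjusted p = 0.569), and TRAV9D-2 by -0.33 (SE 0.19, edgeR adjusted p = 0.733). The remaining names ran from -0.20 for TRAV9-2 to 0.28 for TRAV9D-3, and the last was 0.0085 without replicate 2 of 5 months.

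No difference in the proportions of the copies passed the test. The D names held 26.6% and 26.4% of the family at 1.5 months and 20.5% to 32.3% later. The difference was -0.814 percentage points (two-sided exact permutation test over 540540 arrangements, p = 0.799, adjusted over 5 measures p = 0.964). The N names held 16.9% and 17.6% early and 14.3% to 22.8% later, a difference of 0.630 points (exact permutation p = 0.829, adjusted p = 0.964). In both measures the early samples lay inside the later range, and the sign of both small differences turned in some of the alternative settings given at the end.

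Non-functional rearrangements of the family were compared next, because they carry no receptor. TRAV9 made up 2.96% and 3.18% of the non-functional clonotypes at 1.5 months. The values were 4.45%, 4.20%, 3.82% and 2.36% at 3 months and 4.75% and 2.23% at 5 months. At 7 months they were 4.68%, 3.50%, 3.08%, 4.79% and 3.12%. The early samples lay within the later range, with 33 and 32 such clonotypes against 16 to 51. The difference was 0.28 on the log2 scale (SE 0.26, edgeR adjusted p = 0.911). It ran from 0.0848 without replicate 1 of 5 months to 0.41 without replicate 2 of 5 months, and was 0.61 at 10 or more counts (edgeR adjusted p = 0.910). In this edgeR fit 0 of the 18 V families tested were called (0%). The count at an unadjusted p under 0.05 was 0 in this fit and 0 with DESeq2. At 10 or more counts edgeR called 1 of 15 families, which was not TRAV9. With a replicate block, and without replicate 1 of 1.5 months, 1 other family had an unadjusted p under 0.05 and none was called.

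Within each sample TRAV9 took a larger part of functional than of non-functional clonotypes. The shares averaged 4.97% ± 0.742 and 3.62% ± 0.892 (SD, n = 13). The functional share was higher in 13 of 13 samples, by 0.0570 to 3.22 points. No test of this difference is given, since the functional share chose the family. Per 100 functional clonotypes there were 6.08 to 14.7 non-functional ones in TRAV9 and 14.1 to 17.7 in all other V genes. The ratio differed between the names, from 3.78 for TRAV9-1 and 4.14 for TRAV9D-1 to 36.4 for TRAV9N-3, and TRAV9N-1 had 9 non-functional clonotypes beside its 6 functional ones.

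Clonotypes of the family were small. A functional TRAV9 clonotype had a median of 9 counts, and 51.0% had fewer than 10. Of the 19 V families with at least 200 functional clonotypes, TRAV9 had the lowest pooled median, and the other 18 had medians of 45 counts (TRAV1) to 82 counts (TRAV21). Its mean was the lowest of the 19 families in 13 of 13 samples, and its median in 10 of 13. Mean counts per TRAV9 clonotype ran from 13.5 to 58.8 per sample, against 71.4 to 160.1 for all other V genes, without overlap. The mean was 3.90-fold lower within samples (log2 difference -1.97 ± 0.375, SD, n = 13, lower in 13 of 13, two-sided exact sign-flip permutation p = 2.44e-04, the smallest it can give, adjusted over 6 tests p = 2.93e-04).

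Each gene name shared this small size. The median was 7 counts for TRAV9-1, 8 for TRAV9D-1 and TRAV9D-2, 9 for TRAV9-2 and TRAV9N-3, 10 for TRAV9D-3, 11 for TRAV9N-4 and 19 for TRAV9-4. The 6 TRAV9N-1 clonotypes had a median of 26. Non-functional clonotypes of the family were also small, with a median of 4 counts against 9 to 43 in the other 18 families. Their mean was lower than that of other non-functional clonotypes by 1.55 on the log2 scale (exact sign-flip permutation, adjusted p = 2.93e-04), an alternative added after the data were seen. The count of a clonotype depends on cells, on RNA per cell and on how well its transcripts were amplified and assigned, and these cannot be told apart here.

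Within classes of clonotype size, the lower share at 1.5 months was seen among clonotypes of at least 10 counts. Among these, TRAV9 held 2.15% and 1.46% at 1.5 months and 2.05% to 5.07% later, where only replicate 5 of 7 months was below the higher early sample. Among clonotypes with fewer than 10 counts it held 8.59% and 10.3% early and 7.33% to 15.5% later, and the early samples lay inside the later range. As a part of all functional clonotypes, TRAV9 clonotypes with fewer than 10 counts made up 2.45% and 2.37% early. Later they made up 1.35% in replicate 2 of 3 months and 2.46% to 3.10% in the other samples, so this class was also slightly lower early than in most later samples. In the class of 10 to 29 counts the values were 6.61% and 5.75% against 4.94% to 16.9%. In the class of 30 to 99 counts they were 1.71% and 1.13% against 1.77% to 9.13%, without overlap. Among clonotypes of 100 or more counts they were 0.412% and 0.213% against 0.420% to 2.06%, again without overlap.

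**Figure D3:**
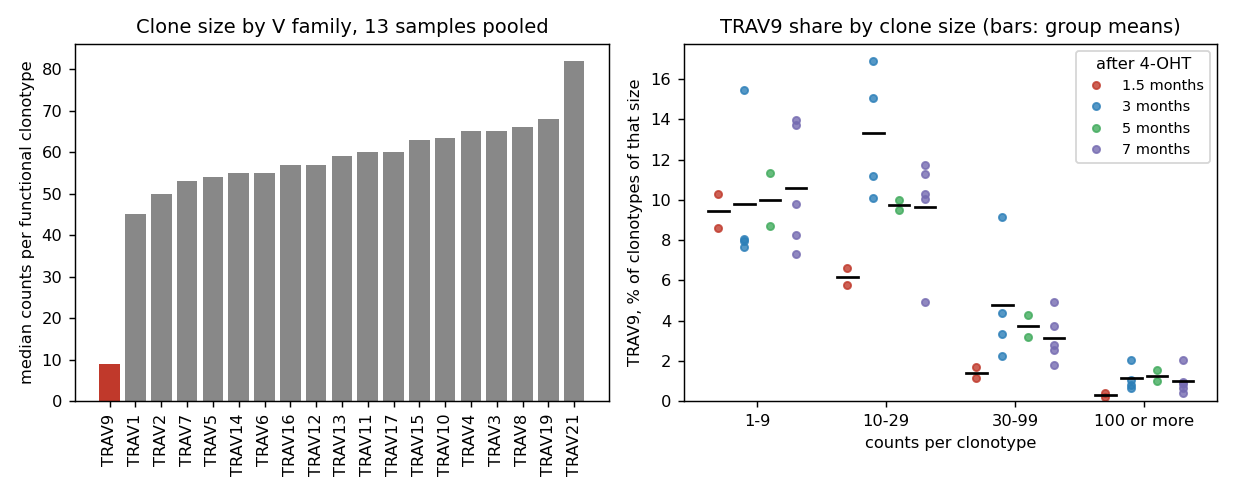
Median counts per functional clonotype in each of 19 V families over all samples (left), and TRAV9 as a percentage of the clonotypes in 4 size classes (right), with 1 point per sample, colours for months after 4-OHT and bars for group means. TRAV9 has a median of 9 counts where the other families have 45 to 82, and its 1.5-month samples are below every later sample in the 2 upper size classes.

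The depth of a sample is given beside these values as the median size of its clonotypes of other V genes. It was 46 and 59 counts at 1.5 months and 38 to 105 later. Replicate 5 of 7 months, the later sample with the low TRAV9 share, had the lowest median at 38. The early sample with a median of 59 had the lowest TRAV9 share of the 13, and 6 later samples with medians of 49 to 59 had shares of 4.81% to 5.71%. The part of sampling depth in the lower share was not tested.

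The size of TRAV9 clonotypes relative to the others of the same sample was also compared over time. Mean counts were 0.235 and 0.146 of those of other V genes at 1.5 months and 0.204 to 0.399 of them later. On the log2 scale the group means were -2.43, -1.87, -1.74 and -1.94 in order of time. The difference of later samples from 1.5 months, 0.58, did not pass the test (pooled SD 0.35, exact permutation p = 0.0625, adjusted over 5 measures p = 0.313). It was 0.93 without replicate 1 of 1.5 months, 0.24 without replicate 2 of 1.5 months and 0.18 at 10 or more counts, none of which passed the test.

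The largest TRAV9 clonotype of each time point remained a small part of its repertoire. Their junctions are shown as examples of the members, from the deposited tables, with capitals for the bases between the V and J ends that the tables give. For TRAV9-2 the tables end the V part early, so the capitals of the last junction include bases that match the germline start of Trav9-2 shown above. In the third junction the V end (position 20, counted from 0) lies past the J start (17) and past the 13 germline bases of Trav9-1 shown above. It therefore has no capitals, and lower case does not prove that a base is germline.

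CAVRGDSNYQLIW at 1.5 months (TRAV9-4, TRAJ33): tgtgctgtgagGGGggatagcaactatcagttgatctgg

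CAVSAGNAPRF at 3 months (TRAV9-4, TRAJ43): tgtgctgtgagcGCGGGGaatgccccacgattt

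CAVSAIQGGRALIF at 5 months (TRAV9-1, TRAJ15): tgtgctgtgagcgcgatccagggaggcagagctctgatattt

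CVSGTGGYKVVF at 7 months (TRAV9-2, TRAJ12): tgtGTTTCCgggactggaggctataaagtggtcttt

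The first held 225 counts or 0.0406% of the functional counts of replicate 1 of 1.5 months (95% Wilson interval 0.0357% to 0.0463%) and ranked 350 in that sample. The second held 1235 counts or 0.140% in replicate 2 of 3 months (0.132% to 0.148%, rank 47). The third held 1182 counts or 0.217% in replicate 1 of 5 months (0.205% to 0.230%, rank 38). The last held 830 counts or 0.156% in replicate 5 of 7 months (0.146% to 0.167%, rank 63). These intervals cover counting error only. The third was seen with 1 count in another sample, and the other three were each found in a single sample. Among the 100 most abundant clonotypes, 4 of the 11 later samples had 1 from TRAV9 and neither early sample had any.

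TRAV9 was joined to 43 J genes in 304 different V-J pairs. The J genes lie downstream of the V genes, with TRAJ58 at the V-proximal end and TRAJ2 at the far end. The most frequent joins all used TRAV9-1. It was joined to TRAJ31 in 154 clonotypes, to TRAJ22 in 85, to TRAJ23 in 79, to TRAJ21 in 78 and to TRAJ15 in 67. The join of TRAV9-1 to TRAJ31 made up 3.99% of the family and was found in 13 of 13 samples.

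The J partners of TRAV9 differed from those of all other V genes in the same samples. With edgeR's quasi-likelihood test on the number of clonotypes, 11 of 43 J genes differed (25.6% called), 5 more used (11.6%) and 6 less used (14.0%). TRAJ31 took 6.13% to 12.2% of the TRAV9 clonotypes of a sample and 4.91% to 5.80% of the others, and was higher in 13 of 13 samples (log2 difference 0.76, SE 0.13, edgeR adjusted p = 2.76e-07). TRAJ12 was also higher in 13 of 13, with 3.81% to 8.81% against 3.47% to 4.31% (0.56, SE 0.13, edgeR adjusted p = 1.16e-04). TRAJ44 (0.70) and TRAJ34 (0.56) were higher in 12 of 13 samples, and TRAJ40 (0.41) in 10 of 13.

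At the other end, TRAJ18 took at most 1.90% of TRAV9 clonotypes and at least 2.01% of the others, without overlap. It was lower in 13 of 13 samples (log2 difference -1.34, SE 0.23, edgeR adjusted p = 2.76e-07). TRAJ58, the J gene nearest to the V genes in the tables, was joined to TRAV9 in 6 clonotypes, at most 0.680% of a sample, against at least 0.679% among other V genes (-2.47, SE 0.50, edgeR adjusted p = 1.48e-05). TRAJ4 (-0.84) was lower in 11 of 13 samples, and TRAJ35 (-0.87) and TRAJ57 (-0.83) in 10 of 13. TRAJ42, the other gene less used, differed by -0.54. TRAJ35 rested on 26 TRAV9 clonotypes. Its edgeR adjusted p of 0.0356 rose above 0.05 when any 1 of 10 samples was left out. That of TRAJ57 (0.0193) rose to 0.0654 without replicate 1 of 3 months and to 0.0502 without replicate 3 of 7 months.

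**Figure D4:**
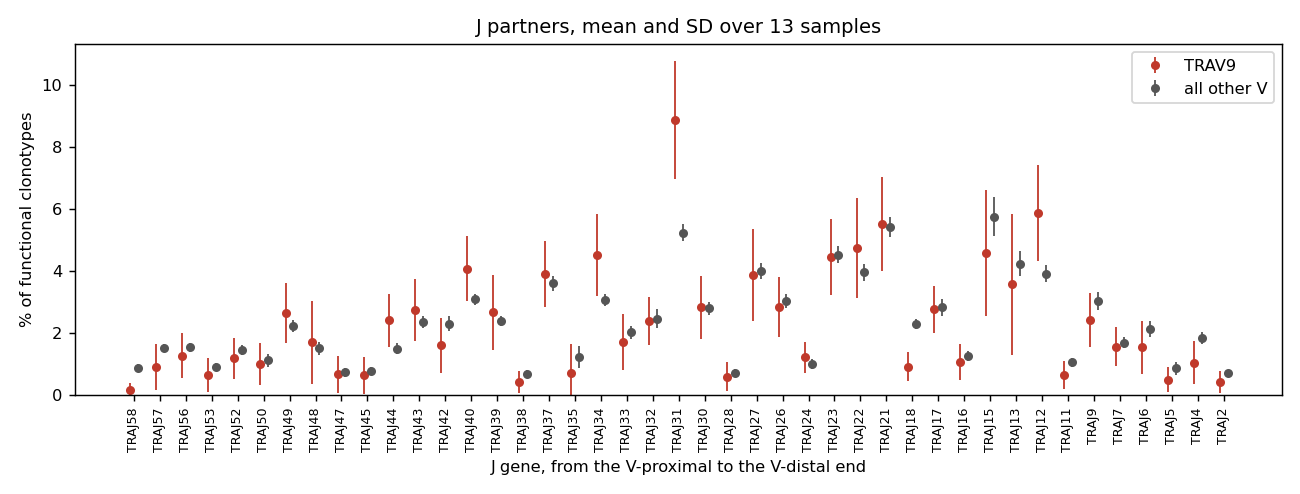
Share of each J gene among TRAV9 clonotypes (red) and among clonotypes of all other V genes (grey), as mean and SD over 13 samples, with J genes in chromosomal order. TRAJ31 stands at 8.87% of TRAV9 clonotypes against 5.24% of the others, and TRAJ18 at 0.921% against 2.29%.

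J use also differed between the copies of the family as they were named. Of the 479 clonotypes named TRAV9D-2, 403 began with the first 9 bases of Trav9-2, a gene of the original set. The D names may thus hold clonotypes of the original set, and the comparison was not repeated without TRAV9D-2. TRAJ41 and the J genes above it, which lie nearest to the V genes, were joined to 14.7% to 33.1% of clonotypes of the original set per sample, and to 6.25% to 19.0% of those with D or N names. The original set was higher in 13 of 13 samples, by 10.99 points ± 4.47 (SD, exact sign-flip permutation p = 2.44e-04, adjusted p = 2.93e-04). Separately, the mean shares were 22.4% in the original set, 15.6% in the D names and 5.69% in the N names. The far J genes, TRAJ2 to TRAJ23, showed the opposite order with 32.5%, 47.8% and 60.6%. Within the original set, the share of the near J genes was 43.8% for TRAV9-4, 20.8% for TRAV9-2 and 11.9% for TRAV9-1, which is the order of their nearness to the J genes. The D and N names did not follow such an order. The share was 15.98% for TRAV9D-1, 19.4% for TRAV9D-2 and 3.91% for TRAV9D-3, and it was 6.06% for TRAV9N-3 and 5.30% for TRAV9N-4, which is the nearer of the pair.

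Over time, 20 of the 43 J partners had enough clonotypes to be tested within the family, and 2 of them changed (10.0% called), 1 in each direction. TRAJ48 was joined to 14 and 10 TRAV9 clonotypes at 1.5 months, or 4.39% and 4.41% of the family. Later samples held 1 to 8 such clonotypes, or 0.314% to 2.78%, so the groups did not overlap. It fell by 1.83 on the log2 scale (SE 0.43, edgeR adjusted p = 5.93e-04). TRAJ48 passed the filter on low counts through the early samples, where it was high, so the call was repeated with no filter over all 43 J genes (edgeR adjusted p = 0.00326). Among all other V genes TRAJ48 took 1.35% and 1.55% early and 1.26% to 1.92% later.

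TRAJ13 was joined to 2 TRAV9 clonotypes in each 1.5-month sample, or 0.627% and 0.881% of the family. Later samples held 5 to 25, or 1.36% to 9.51%, again without overlap. It rose by 2.46 (SE 0.64, edgeR adjusted p = 0.00164). TRAJ13 passed the filter through the later samples, where it was high, and with no filter its edgeR adjusted p was 0.00302. Among all other V genes TRAJ13 took 3.93% and 4.53% early and 3.59% to 4.84% later. Of the 24 early TRAJ48 clonotypes, 8 had 1 count and 10 had at least 10. None of the 4 early TRAJ13 clonotypes exceeded 5 counts. Without replicate 1 of 1.5 months no J gene was called (TRAJ48 edgeR adjusted p = 0.0984, TRAJ13 edgeR adjusted p = 0.138, 2 at an unadjusted p under 0.05). The log2 differences were then -1.84 and 2.21, and over all 13 samples left out in turn they ran from -1.97 to -1.73 for TRAJ48 and from 2.08 to 2.68 for TRAJ13. At 10 or more counts both J genes were too rare to be tested, as was TRAJ48 at 2 or more counts.

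**Figure D5:**
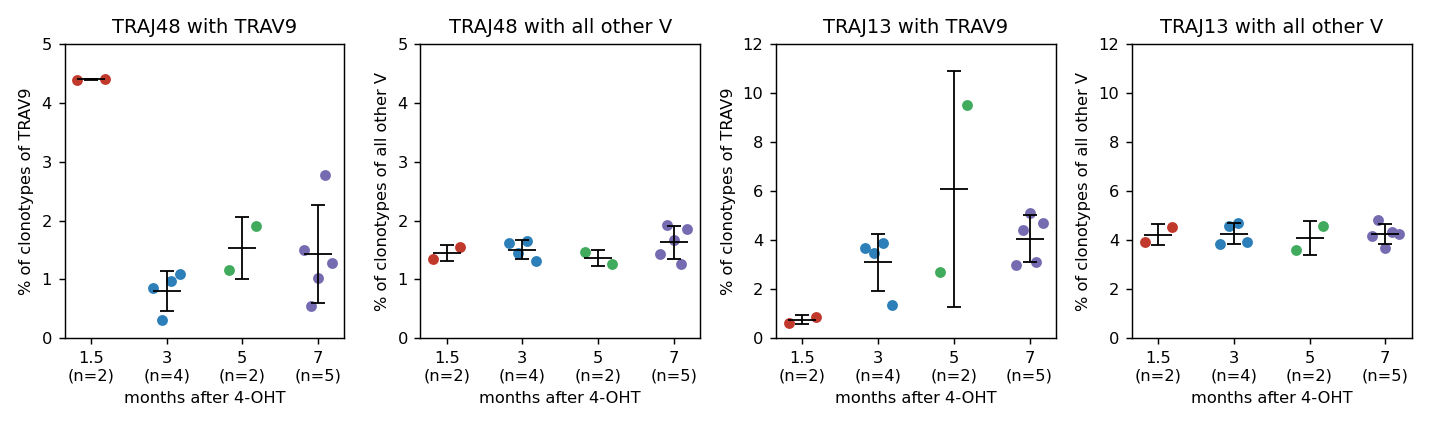
Share of TRAJ48 and TRAJ13 among TRAV9 clonotypes and among clonotypes of all other V genes, by months after 4-OHT, with 1 point per sample and bars for mean and SD. Only the TRAV9 panels separate the 1.5-month samples from all later ones, with TRAJ48 at 4.39% and 4.41% early and TRAJ13 at 0.627% and 0.881%.

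CDR3 lengths of the family lay at 13 and 14 residues more often than those of all other V genes pooled. Other single families were not compared, so this is not shown to be particular to TRAV9. Of the TRAV9 clonotypes, 36.0% had 13 residues and 34.9% had 14, against 30.24% and 30.03% among other V genes. Lengths of 11 residues were found in 1.64% against 4.02%, and of 12 in 9.69% against 14.6%. These values are means over 13 samples. The mean length was 13.56 ± 0.0623 residues against 13.49 ± 0.0235 (SD, n = 13), and it was higher in 11 of 13 samples (exact sign-flip permutation p = 0.00293, adjusted p = 0.00293). This difference turned to -0.0168 residues when only clonotypes of at least 10 counts were kept. Over time the mean length differed by less than its spread, with 13.55 and 13.56 residues at 1.5 months and 13.47 to 13.69 later (exact permutation p = 0.964, adjusted p = 0.964).

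Bases lying between the ends of V and J averaged 2.48 ± 0.176 in TRAV9 and 2.16 ± 0.0492 in all other V genes (SD, n = 13), and was higher in 13 of 13 samples (exact sign-flip permutation p = 2.44e-04, adjusted p = 2.93e-04). This excess lay in the name TRAV9-2. In all 255 of its functional clonotypes the tables end the V part at position 2 or before, counted from 0, and they gave a mean of 8.95 such bases, although 206 (80.8%) of these junctions began with the first 9 germline bases of Trav9-2. Without TRAV9-2 the difference was -0.128 bases (exact sign-flip permutation, adjusted p = 0.00488), an alternative added after the data were seen. Where the deposited V and J ends overlapped, the number of bases was set to 0. The V end can also run past the germline start in other names, as in the TRAV9-1 junction shown above. Both differences therefore depend on the deposited ends. Over time the number was 2.53 and 2.14 early and 2.19 to 2.77 later, which did not pass the test (difference 0.155, exact permutation p = 0.215, adjusted p = 0.537). Without TRAV9-2 it was 1.91 and 1.81 early and 1.89 to 2.32 later, where only replicate 3 of 3 months was below the higher early sample.

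The 3862 functional clonotypes encoded 2791 distinct CDR3 amino-acid sequences, and 81.4% of these were found in 1 sample. On average 38.78% ± 3.598 of the TRAV9 clonotypes of a sample had a CDR3 that TRAV9 also encoded in another sample. For all other V genes combined the share was 60.9% ± 2.73 (SD, n = 13), lower for TRAV9 in 13 of 13 samples (exact sign-flip permutation p = 2.44e-04, adjusted p = 2.93e-04). The other V genes form a far larger pool in which a match is easier to find. Counting only matches within the same V family, added after the data were seen, left a difference of -12.5 points (exact sign-flip permutation, adjusted p = 2.93e-04). Families such as TRAV7 (18.8% of functional clonotypes) and TRAV12 (11.5%) are larger than TRAV9, so a match within them is still easier to find, and the part of pool size was not tested.

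Among the TRAV9 sequences, 10 CDR3s were found in at least 7 samples, and 6 of these used TRAJ31. The 5 most widely shared are shown with their most common junction, in the same notation. The deposited ends leave few or no bases between V and J in them. Added bases can still be present in lower case. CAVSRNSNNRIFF, for example, has c after tgtgctgtgagc, where the germline starts shown above have g or A. Of 2 CDR3s found in 8 samples, the one with the higher mean share of counts was taken.

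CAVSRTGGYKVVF (TRAJ12): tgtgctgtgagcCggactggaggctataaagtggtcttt

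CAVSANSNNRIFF (TRAJ31): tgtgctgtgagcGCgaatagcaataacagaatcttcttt

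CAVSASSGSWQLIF (TRAJ22): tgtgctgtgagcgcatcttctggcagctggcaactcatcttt

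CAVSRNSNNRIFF (TRAJ31): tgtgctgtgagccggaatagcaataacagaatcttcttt

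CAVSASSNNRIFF (TRAJ31): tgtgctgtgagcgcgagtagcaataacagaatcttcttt

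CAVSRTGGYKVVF was found in 11 samples through 5 nucleotide sequences, and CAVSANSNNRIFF in 11 through 3. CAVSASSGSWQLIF was found in 10 samples, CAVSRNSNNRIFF in 9 and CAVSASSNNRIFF in 8. The first 3 were present in both 1.5-month samples. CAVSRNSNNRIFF and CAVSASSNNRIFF were in neither of them and in 9 and 8 of the 11 later ones. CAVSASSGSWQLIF and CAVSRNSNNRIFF were also encoded with other V genes in 13 of 13 samples, whereas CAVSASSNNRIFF was not found with another V gene. In all, 33 TRAV9 clonotypes (0.854%) were at least 100 times more abundant in another sample, against 3.27% of other clonotypes, and the differences above kept their call without such clonotypes.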

How the data were processed

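TCRα cDNA of 13 samples was amplified by 5′ RACE and sequenced on a MiSeq. The authors aligned reads and assembled clonotypes with MiXCR 3.0.13 and corrected them with VDJtools 1.2.1; the submitters' processing notes name GRCm38. The deposited tables give for each clonotype a count (reads or molecules, which is not stated), a fraction of the sample, V and J names, CDR3 sequence and V and J end positions, the last 2 being other position values as deposited by the authors. The fraction was not used in tests. Non-functional clonotypes were still present, and a functional one had letters only in its amino-acid sequence. Reads of near-identical V copies can be split between names.

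Members, lists and tests were chosen with earlier results of these data known. Named J genes over time were up to 3 with adjusted p under 0.05. Against other V genes they were the 5 highest and 5 lowest log2 differences. TRAJ42 was named after its value was seen. All TRAV9 genes, the 5 most frequent joins, the largest clonotype of each time point and the 5 most shared CDR3s were named.

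Numbers of clonotypes were tested with edgeR 4.0.16 in R 4.3.3 (filterByExpr, quasi-likelihood F test, later groups' mean against 1.5 months, all 13 samples). TMM factors were used for V families, and the column total for counts within a group. Single measures were compared with exact permutation tests over samples (540540 arrangements) or sign flips within samples (8192), all two-sided. Adjustment was by Benjamini-Hochberg over all features or measures. A planned sign-flip test of the functional against the non-functional share was counted in it but is not reported, because the functional share chose the family. The edgeR fits over time and both permutation tests were tested on simulated data. Python 3.11.15 with numpy 2.4.6, pandas 2.3.3, scipy 1.17.1 and matplotlib 3.10.9 was used. Total counts per sample were 509818 to 936831. Alternatives were DESeq2 1.42.0, other scaling, no filter, minimum counts of 2 or 10, a replicate block, single time points, each sample left out, and dropping clonotypes that were 100 times or more as abundant elsewhere. Further settings, named where they are used, and medians in place of mean counts were added after the data were seen.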

Additional observations from a re-analysis of the deposited data

Results flagged for a closer look

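Replicate 5 of 7 months stood apart in the TRAV9 share of functional clonotypes. It held 3.83%, while the other 4 samples of its group held 5.23% to 5.71%. A screen for outliers (Dixon's 95% limit for 5 samples) flagged this sample. The group was 1 of 20 groups of values screened in this way, and chance gives about 1 in 20. Because this share chose the family, the flag is not a test of it, and nothing is concluded from it.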

How the results depend on the processing

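In each alternative run, direction and call held for the smaller clones, the lower sharing and the J use of the copies as named. None of these runs moved or dropped the uncertain name TRAV9D-2. The difference of the functional share, later minus 1.5 months, was 1.44 percentage points and ran from 1.196 to 1.69 with each sample left out. Taken on counts it was 0.777 points, from a lower base. At 1.5 months TRAV9 held 0.967% and 0.524% of functional counts against 3.99% and 3.49% of functional clonotypes, so the points are not on a like scale. J genes called over time numbered 1 of 15 tested at 2 or more counts (TRAJ13, with TRAJ48 not tested) and 0 of 4 at 10 or more counts (neither of them tested). They numbered 0 to 2 with a sample left out. J genes that separated TRAV9 from other V genes numbered 8 to 13 over all alternatives, and TRAJ40 was not called at 10 or more counts (log2 difference 0.44, edgeR adjusted p = 0.0682).

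Over time, small differences that never passed a test changed sign, and the cause was not tested. The share of the D copies was 1.38 points higher later at 2 or more counts, 0.0535 at 10 or more counts and 0.0650 at 3 months alone, and ran from -1.71 to 0.0793 with each sample left out. That of the N copies was -1.65 at 2 or more counts, -3.62 at 10 or more and -0.00461 at 3 months alone, and ran from -0.792 to 2.05. Mean CDR3 length over time differed by 0.0880 residues at 10 or more counts, 0.02004 at 3 months and 0.0345 at 7 months alone, and ran from -0.0157 to 0.00739. Inserted bases over time ran from -0.0410 to 0.351. Against other V genes, 2 differences that had passed their test turned: length was -0.0168 residues at 10 or more counts (cause not tested), and inserted bases -0.128 without TRAV9-2. Within the family the log2 difference of TRAV9-2 was 0.0299 at 10 or more counts. With each sample left out, it ran from -0.52 to 0.38 for TRAV9-2, from -0.41 to 0.0233 for TRAV9-4, from -0.15 to 1.04 for TRAV9N-3 and from -0.18 to 0.12 for TRAV9N-4, each set by leaving out replicate 1 or 2 of 1.5 months. It ran from 0.0085 to 0.52 for TRAV9D-3 and from 0.0965 to 0.31 for TRAV9D-1. The non-functional TRAV9 difference ran from 0.0848 to 0.41 and relative clone size over time ran from 0.24 to 0.93.

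Replicate numbers repeat across time points but the labels tie no samples together by them. Deviations of V family shares correlated at -0.493 to 0.538 between same-numbered samples, above 0.1 in 5 of 14 pairs, so pairing was not assumed. With a replicate block the non-functional TRAV9 share differed by 0.38 (edgeR adjusted p = 0.761), the N copies by -0.0834 points and the D copies by -1.30 points. Length differed by -0.0148 residues, inserted bases by 0.184 and relative clone size by 0.69, and 0 gene names and 2 J genes were called. The block changed no call. The non-functional comparison rested on 16 to 51 TRAV9 clonotypes per sample, with an SE of 0.26 on the log2 scale.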
